A study of Homo sapiens with 4 samples.

Results

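The transcripts of 10 genes of the actin cytoskeleton were followed in HCC1954 cells, an established line of HER2-amplified human breast cancer cells, with and without depletion of the palmitoyltransferase ZDHHC15. They are the actin genes ACTA2, ACTB and ACTG1, the calponin genes CNN1 and CNN2 with their relative TAGLN, the tropomyosin genes TPM1, TPM2 and TPM4, and the myosin light chain gene MYL9. They were chosen by symbol, with earlier results of these data known, and make up 10 of the 58735 genes counted. They lie on 8 chromosomes, with CNN1, CNN2 and TPM4 on chromosome 19. Cells of the shCON group (2 samples) received a scrambled short hairpin in the GIPZ lentiviral vector, and cells of the shZDHHC15 group (2 samples) a GIPZ hairpin against ZDHHC15, both in RPMI-1640 medium with fetal bovine serum. The labels speak of a stable knockdown in one place and of plasmids transfected transiently, with harvest after 36 h, in another, and the study's methods add that monoclonal cultures were screened, so the shZDHHC15 samples may stem from selected clones. Neither source says whether samples 1 and 2 are separate cultures or different hairpins, and p-values therefore measure only the spread between these samples, which may be technical.

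Actin exists as free monomers and as filaments, and the filaments carry tropomyosins along their length, calponins and transgelins on their surface and myosin II motors that pull on them. The transcription factor SRF (serum response factor) switches on many of the genes for these proteins together with its cofactors MRTFA and MRTFB, which free actin monomers hold in the cytoplasm and which enter the nucleus when monomers are used up in filaments. SRF binds a DNA element known as the CArG box, and in most tissues the contractile forms of these proteins (ACTA2, TAGLN, CNN1, MYL9) mark smooth muscle and myofibroblasts, while ACTB and ACTG1 are made by nearly all cells.

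Total counts per sample lay between 17560982 and 19118704, and 3 counts, the limit that a count of 0 allows, correspond to 0.153 to 0.178 CPM (counts scaled to a common library size, with TMM factors), a limit that covers counting error only. ZDHHC15 itself had 17617 and 15716 counts in shCON cells and none in shZDHHC15 cells. The 7 epithelial and HER2 markers (EPCAM, CDH1, KRT8, KRT18, KRT19, ERBB2, GRB7) were all measured, as the cell label implies. Of the markers of other cell types, the smooth muscle gene DES, the fibroblast gene LUM and the leukocyte gene CD3E were at 0 counts in all 4 samples. Others were expressed, with the endothelial marker CDH5 at 44.3 to 75.8 CPM and the smooth muscle marker SMTN at 49.5 to 67.7 CPM, above the epithelial marker KRT19 (18.8 to 27.0 CPM). The endothelial marker VWF had at most 7 counts in a sample. In bulk RNA, fewer cells of a kind and less RNA per cell cannot be told apart.

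The CArG box was searched for in its exact form (CC, a run of A or T, then GG) on both strands in the RefSeq promoter windows of GRCh38.p14. Each window ran from 250 bases before to 50 bases after a transcription start. Boxes that deviate from this form or lie outside the windows were not searched for. Of the 10 genes, 7 matched an entry by symbol (all but ACTB, TAGLN and MYL9, which were not searched), and 3 of these 7, ACTG1, CNN2 and TPM4, held a CArG box. Among all genes with a window, 1.60% held the element (438 of 27305). Each is printed 5′ to 3′ on the strand of its gene with the CArG box in capitals and its flanks in lower case, beside the window of SRF, which regulates its own gene through such boxes. The sequences are shown because the change of these 4 transcripts is compared below.
ACTG1, chr17:81512839-81512938, minus strand: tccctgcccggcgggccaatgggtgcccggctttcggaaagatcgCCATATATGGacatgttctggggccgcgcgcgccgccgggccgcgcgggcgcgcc
CNN2, chr19:1026474-1026573, plus strand: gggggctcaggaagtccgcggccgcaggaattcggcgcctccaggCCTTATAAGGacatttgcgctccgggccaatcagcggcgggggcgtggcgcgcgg
TPM4, chr19:16067320-16067419, plus strand: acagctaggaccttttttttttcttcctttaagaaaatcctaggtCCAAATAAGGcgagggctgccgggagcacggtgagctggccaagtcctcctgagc
SRF, chr6:43171194-43171293, plus strand: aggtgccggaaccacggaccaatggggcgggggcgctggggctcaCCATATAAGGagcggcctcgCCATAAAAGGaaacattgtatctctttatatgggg
The element began 94 bases before the start in ACTG1, 89 bases before it in CNN2 and 173 bases before it in TPM4. In SRF, 2 boxes began 30 and 10 bases before the start. GGAATG, the element bound by the TEAD partners of YAP, was searched for as GGAATG or CATTCC and was found in ACTA2 only, 183 bases before the start, against 16.7% of all genes with a window, and in none of the windows of the 7 genes did both elements occur. These matches are a description of the letters and do not show binding.

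Across the 10 genes the main result was a fall. Of the 8 genes with enough counts to be tested, 5 were lower in shZDHHC15 cells (ACTB, ACTG1, TAGLN, CNN2 and TPM1), 1 was higher (ACTA2) and 2, TPM2 and TPM4, did not pass the test. Lower calls at an adjusted p under 0.05 made up 20.3% of all 15817 genes tested and higher calls 21.7%, so that 42% of all genes were called, against 75% of these 8. Because the genes were chosen with earlier results of these data known, this contrast is a description only. The median log2 fold change of the 8 genes was -0.33, beside 0.02 for all genes tested. The values of the groups did not overlap for 5 genes in the lower and 1 gene in the higher direction, which among all genes held for 35.3% and 37.2%. CNN1 and MYL9 were not tested, for want of counts. Together the 10 genes took 1.51% and 1.57% of all counts in shCON cells and 1.03% and 1.23% in shZDHHC15 cells.

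**Figure D1:**
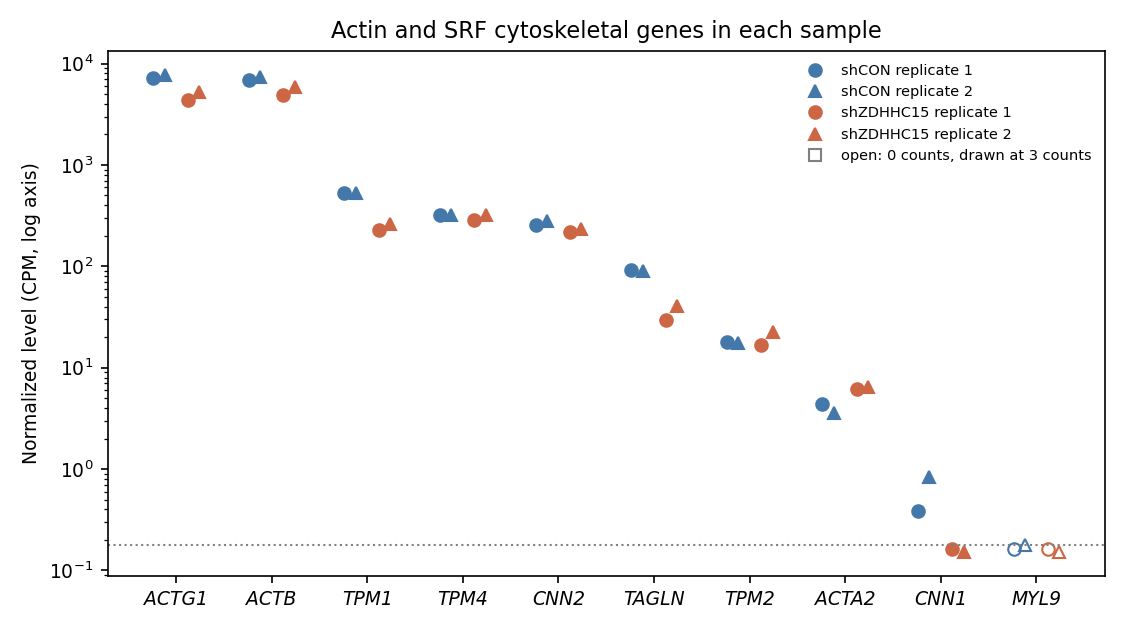
Normalized level (CPM, log axis) of each of the 10 genes in each of the 4 samples, ordered by level, with circles for replicate 1 and triangles for replicate 2. The dotted line marks the highest level that a count of 0 allows (0.178 CPM), and the open symbols of MYL9, at 0 counts, are drawn at 3 counts. Of the tested genes, ACTG1, ACTB, TPM1, CNN2 and TAGLN lie lower in both shZDHHC15 samples than in either shCON sample, and ACTA2 lies higher. CNN1, with too few counts to be tested, also lies lower.

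ACTB (ENSG00000075624; GRCh38, chromosome 7, 5527147 to 5563784, minus strand) encodes cytoplasmic beta-actin and is often used as a reference gene. It reached 6896 and 7352 CPM in the shCON samples and 4940 and 5826 CPM in the shZDHHC15 samples. Every shZDHHC15 value lay below every shCON value, and ACTB fell to 75.6% of its shCON level, by 0.40 on the log2 scale (standard error, SE, 0.0940; Benjamini-Hochberg adjusted p = 0.00309 by the quasi-likelihood test of edgeR). Without shZDHHC15 replicate 1 the log2 fold change was -0.29 and the call was lost (adjusted p = 0.122).

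ACTG1 (ENSG00000184009; chromosome 17, 81509971 to 81523847, minus strand) encodes cytoplasmic gamma-actin, which differs from beta-actin mainly at its amino terminus. It stood at 7211 and 7773 CPM in shCON cells and at 4318 and 5220 CPM in shZDHHC15 cells. The groups were apart, and ACTG1 fell to 63.7% of its shCON level (log2 fold change -0.65, SE 0.0981, adjusted p = 9.94e-05). Both cytoplasmic actins together took 1.39% and 1.45% of all counts in shCON cells, and 0.947% and 1.13% in shZDHHC15 cells. Their transcripts share a stretch of 1151 bases at 90.9% identity, and no other gene shares at least 150 bases at 97% identity or more with either of them.

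The balance between both cytoplasmic actins moved as well. ACTG1 received 1.05 and 1.06 counts per count of ACTB in the shCON samples and 0.874 and 0.896 in the shZDHHC15 samples, without overlap. As a share of all counts per kilobase on the 7 actin genes, ACTG1 took 55.01% and 55.3% in shCON cells and 50.5% and 51.1% in shZDHHC15 cells, a difference of -4.31 percentage points, and ACTB gained 4.25 points. With 2 samples against 2, an exact two-sided permutation test cannot give a p below 0.333, which is its value for each of these shares.

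ACTA2 (ENSG00000107796; chromosome 10, 88935074 to 88991339, minus strand) encodes the alpha-actin of smooth muscle and myofibroblasts. It was scarce, with 80 and 60 counts (4.39 and 3.56 CPM) in shCON cells and 114 and 128 counts (6.12 and 6.52 CPM) in shZDHHC15 cells. Against the direction of the cytoplasmic actins, ACTA2 was higher in shZDHHC15 cells, 1.59-fold (log2 fold change 0.67, SE 0.216, adjusted p = 0.0225), with no overlap between groups. The call was lost with the Wald test of DESeq2 (adjusted p = 0.143), without the filter on low counts (0.0639), without shCON replicate 2 (0.137) and without shZDHHC15 replicate 2 (0.0842). Its exons overlap 380 bases of FAS, a death receptor gene on the opposite strand, which had 143 and 119 counts in shCON and 248 and 233 in shZDHHC15 cells and was also higher (log2 fold change 0.75, SE 0.169, adjusted p = 0.00237). The strand setting of the counting is not given in the sources used here, and the part of FAS reads in the ACTA2 value was not tested. ACTA2 made up at most 0.0721% of the actin transcripts per length in any sample.

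The remaining actin genes also moved in both directions. ACTG2, the gamma-actin of enteric smooth muscle, had 466 and 444 counts in shCON and 148 and 235 in shZDHHC15 cells, and fell by 1.38 on the log2 scale (SE 0.169, adjusted p = 1.56e-05). ACTBL2, a beta-actin-like gene, had 127 and 114 counts in shCON and 236 and 256 in shZDHHC15 cells, and rose by 0.91 (SE 0.166, adjusted p = 0.00053). Of the 7 actin genes, 5 were tested, of which 3 were lower and 2 higher, beside 20.3% and 21.7% of all genes tested. The skeletal and cardiac genes ACTA1 and ACTC1 had at most 13 counts and 1 count in a sample and were not tested.

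TAGLN (ENSG00000149591; chromosome 11, 117199321 to 117204782, plus strand) encodes transgelin or SM22-alpha, an actin-bundling protein whose gene is a classical SRF target. It had 1672 and 1504 counts in shCON cells and 547 and 792 in shZDHHC15 cells, or 91.7 and 89.2 against 29.4 and 40.3 CPM. The shZDHHC15 samples lay further apart than the shCON samples, and both were far below them. TAGLN fell furthest of the 8 tested genes, to 38.6% of its shCON level (log2 fold change -1.37, SE 0.131, adjusted p = 1.25e-06), and 309 of all 15817 genes tested had a lower value. Its exons overlap 446 bases of PCSK7, a proprotein convertase gene on the opposite strand, which went the other way, from 505 and 445 to 724 and 824 counts (log2 fold change 0.58, SE 0.116, adjusted p = 0.00104).

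CNN2 (ENSG00000064666; chromosome 19, 1026581 to 1039068, plus strand) encodes calponin 2, the calponin of non-muscle cells. Its level was 258 and 278 CPM in shCON cells and 216 and 235 CPM in shZDHHC15 cells. The gap between the groups was about as wide as the difference between samples of a group, and the log2 fold change of -0.25 was close to the limit of the call (SE 0.0921, adjusted p = 0.042). The call was lost with scaling by library size only (log2 fold change -0.17, adjusted p = 0.131), without the filter on low counts (0.0886), and without shCON replicate 2 (0.108), shZDHHC15 replicate 1 (0.343) or shZDHHC15 replicate 2 (0.0802).

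CNN1 (ENSG00000130176; chromosome 19, 11538717 to 11550323, plus strand), the calponin of smooth muscle, had 7 and 14 counts in shCON cells and 3 in each shZDHHC15 sample. Summed over samples, these 6 against 21 counts gave a ratio of 0.262 per unit of library size, with a 95% exact interval of 0.0866 to 0.672 that covers counting error only. The gene had too few counts to be tested.

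Relatives of these genes fell with them. TAGLN2, the transgelin of non-muscle cells, went from 1790 and 1992 to 1024 and 1072 CPM (log2 fold change -0.85, SE 0.0885, adjusted p = 3.07e-06). CNN3, the acidic calponin, went from 346 and 345 to 185 and 195 CPM (log2 fold change -0.86, SE 0.0885, adjusted p = 2.68e-06). All 4 tested genes of the 6 in the calponin and transgelin family were thus lower, with a median log2 fold change of -0.86. Lower calls made up 20.3% of all genes tested. TAGLN3, with at most 4 counts in a sample, was not tested. TAGLN received 0.0512 and 0.0447 counts per count of TAGLN2 in shCON cells and 0.0287 and 0.0376 in shZDHHC15 cells.

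**Figure D2:**
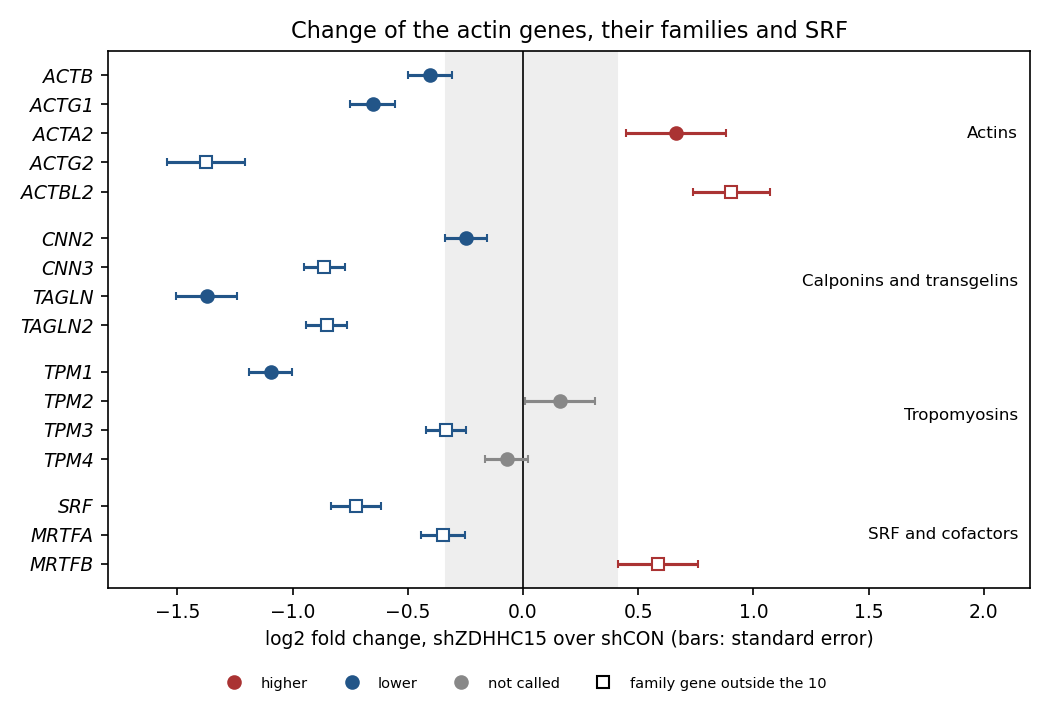
Log2 fold change of shZDHHC15 over shCON cells for the tested actin, calponin, transgelin and tropomyosin genes and for SRF and its cofactors, with standard errors as bars. Filled circles are the 8 tested genes of the 10 and open squares their relatives. The grey band spans the middle 50% of all genes tested (-0.33 to 0.41). TAGLN and ACTG2 lie furthest to the left, CNN2, TPM2 and TPM4 inside the band and ACTA2, ACTBL2 and MRTFB to the right.

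Among the tropomyosins, which decide how other proteins reach the actin filament, TPM1 alone of the 3 genes followed here passed the test. TPM1 (ENSG00000140416; chromosome 15, 63042632 to 63071915, plus strand) encodes alpha-tropomyosin. It had 9594 and 8848 counts in shCON cells and 4259 and 5164 in shZDHHC15 cells, or 526 and 525 against 229 and 263 CPM. The shCON samples were nearly equal, and both shZDHHC15 samples lay far below them. TPM1 fell to 46.8% of its shCON level (log2 fold change -1.10, SE 0.0939, adjusted p = 4.19e-07), and 545 of all genes tested had a lower value. The antisense gene TPM1-AS overlaps 2070 bases of its exons but received at most 52 counts in a sample.

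TPM4 (ENSG00000167460; chromosome 19, 16067021 to 16103005, plus strand), a short tropomyosin of non-muscle cells, stood at 318 CPM in both shCON samples and at 283 and 323 CPM in the shZDHHC15 samples. The shCON values lay between the shZDHHC15 values, and the log2 fold change was -0.07 (SE 0.0926, 95% interval -0.25 to 0.11, adjusted p = 0.571). TPM2 (ENSG00000198467; chromosome 9, 35681992 to 35690121, minus strand), which encodes beta-tropomyosin, had 17.9 and 17.4 CPM in shCON cells and 16.9 and 22.6 CPM in shZDHHC15 cells. Its groups overlapped too (log2 fold change 0.16, SE 0.153, 95% interval -0.14 to 0.46, adjusted p = 0.425). These intervals leave out a fall of the size seen for TPM1, but a p above the threshold does not show that TPM2 and TPM4 were the same in both groups.

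TPM3, the fourth tropomyosin gene, went from 667 and 710 to 549 and 542 CPM (log2 fold change -0.33, SE 0.0856, adjusted p = 0.00574), a call lost without shZDHHC15 replicate 1 (adjusted p = 0.0553) or replicate 2 (0.0576). The make-up of the tropomyosins therefore differed between groups. TPM1 received 1.65 counts per count of TPM4 in both shCON samples and 0.807 and 0.816 in the shZDHHC15 samples. Per kilobase of gene length, TPM1 took 25.1% and 24.3% of the tropomyosin transcripts in shCON cells and 14.6% and 15.8% in shZDHHC15 cells, a difference of -9.49 percentage points. The share of TPM4 went from 22.6% and 22.0% to 27.1% and 28.9% (5.64 points) and that of TPM2 from 3.39% and 3.20% to 4.29% and 5.37% (1.53 points). The share of TPM3 overlapped between groups (48.8% and 50.5% against 54.0% and 49.97%, p = 0.667 by the exact permutation test), while each of the other shares gave 0.333, the smallest p that this test allows. The gene lengths span all annotated exons and are far above those of single transcripts for TPM1 (12876 bases) and TPM4 (8632 bases). With the median length of the coding transcripts instead, a choice made after seeing the data, the share of TPM1 was 47.9% and 46.7% in shCON and 32.1% and 34.4% in shZDHHC15 cells, beside 17.7% and 18.8% for TPM4 in shZDHHC15 cells. The order of TPM1 and TPM3 in shCON cells, and that of TPM1 and TPM4 in shZDHHC15 cells, thus depended on the length used, and with the transcript lengths the share of TPM3 no longer overlapped between groups.

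MYL9 (ENSG00000101335; chromosome 20, 36541484 to 36551447, plus strand) encodes the regulatory light chain of smooth muscle myosin II and is listed at 0 counts in every sample, which allows at most 0.153 to 0.178 CPM, so that no comparison was possible. Its close relatives MYL12A and MYL12B, named here after their values were seen, encode the regulatory light chains of non-muscle cells and were abundant. MYL12A went from 483 and 512 to 373 and 405 CPM (log2 fold change -0.35, SE 0.0889, adjusted p = 0.00508), and MYL12B from 535 and 525 to 394 and 424 CPM (log2 fold change -0.37, SE 0.0871, adjusted p = 0.00319). Of 18 genes of myosin II and its control, 17 were tested, with 5 higher, 8 lower and a median log2 fold change of -0.23. Over all genes tested, 21.7% were higher and 20.3% lower. The furthest fall was that of RHOB, a small GTPase gene (2096 and 2162 against 756 and 880 counts, log2 fold change -1.51, SE 0.107, adjusted p = 5.33e-08). The furthest rise was that of PPP1R12B, which encodes a targeting subunit of myosin phosphatase (162 and 144 against 336 and 305 counts, log2 fold change 0.94, SE 0.158, adjusted p = 0.000249) and whose exons overlap SYT2 on the opposite strand. The heavy chain genes, also named after their values were seen, went in both directions, with MYH9 lower (log2 fold change -0.59) and MYH10 and MYH14 higher (0.68 and 0.77).

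Levels can be compared between genes only per length, here as CPM per kilobase of gene length (RPKM). In shCON cells ACTG1 (2503 ± 133 RPKM, SD, n = 2) and ACTB (2024 ± 91.5) stood far above the others. CNN2 followed at 73.6 ± 3.79 RPKM, then TPM1 at 40.8 ± 0.0936, TPM4 at 36.9 ± 0.0227, TAGLN at 23.1 ± 0.460, TPM2 at 5.44 ± 0.110 and ACTA2 at 1.33 ± 0.197. In shZDHHC15 cells ACTG1 (1593 ± 213) and ACTB (1530 ± 178) were apart by less than their SD. TPM4 (35.1 ± 3.21) there stood above TPM1 (19.1 ± 1.89), an order that turned with the median length of the coding transcripts, and the ranges of 1 SD around TAGLN (8.90 ± 1.98) and TPM2 (6.08 ± 1.23) overlapped. The order of neighbours rests on the length given for each gene.

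SRF itself was lower. It had 213 and 248 CPM in shCON cells and 128 and 151 CPM in shZDHHC15 cells, without overlap (log2 fold change -0.72, SE 0.107, adjusted p = 8.65e-05). Its actin-regulated cofactors went apart. MRTFA went from 99.3 and 101 to 79.1 and 78.8 CPM (log2 fold change -0.35, SE 0.0956, adjusted p = 0.00939), a call lost without shZDHHC15 replicate 1 (adjusted p = 0.0724) or replicate 2 (0.0677). MRTFB went from 21.3 and 14.9 to 31.2 and 23.4 CPM (log2 fold change 0.59, SE 0.174, adjusted p = 0.0136), a call lost without the filter on low counts (adjusted p = 0.128), without shCON replicate 2 (0.0629) and without shZDHHC15 replicate 1 (0.130). MYOCD, which encodes the muscle-specific cofactor myocardin, had at most 3 counts in a sample. Of 8 genes of SRF and its cofactors, 6 were tested, with 1 higher, 3 lower and a median of -0.20. Among all genes tested, 20.3% were lower and 21.7% higher. Of the 4 genes whose promoter boxes are printed above, SRF, ACTG1 and CNN2 were lower and TPM4 did not pass the test. In the searched genes without an exact box in the window, TPM1 was lower, ACTA2 was higher, TPM2 did not pass and CNN1 was not tested. They may hold boxes of another form or place. ACTB and TAGLN, both lower, were not searched. Whether the box goes with the change was not tested.

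Other genes known as MRTF-SRF targets, from a list of 24, went mostly down. Of 21 tested, 13 were lower, 1 was higher and 7 did not pass the test, with a median log2 fold change of -0.53 beside 0.02 for all genes. Lower calls made up 20.3% and higher calls 21.7% of all genes tested. The furthest fall was that of CYR61, a secreted matrix protein gene that YAP also regulates (15531 and 14773 against 1741 and 3080 counts, log2 fold change -2.79, SE 0.168, adjusted p = 8.71e-09). CTGF, THBS1 and ANKRD1, named after their values were seen, came next (log2 fold changes -2.36, -2.35 and -2.08) and are also known as YAP targets. YAP1, likewise named afterwards, was itself lower (7764 and 7011 against 1024 and 1272 counts, log2 fold change -2.81), and its part in these falls was not tested. The single rise was that of FBLIM1, which encodes a filamin-binding protein, from 11 counts in each shCON sample to 38 and 53 (log2 fold change 1.91, SE 0.391, adjusted p = 0.00123). The focal adhesion gene VCL (log2 fold change -0.10, adjusted p = 0.411) and the filamin gene FLNA (-0.16, adjusted p = 0.146), both singled out after their values were seen, did not pass the test. SRF, MYH9, CALD1 and DSTN stand in this list and in another, so the lists are not independent.

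SRF also serves the immediate early genes through ternary complex factors such as ELK1, which respond to growth factor signalling. Of 13 such targets all were tested, with 7 lower, 2 higher and a median of -0.33, where 20.3% of all genes were lower and 21.7% higher. The stress-response gene ATF3 fell furthest (3225 and 3047 against 975 and 1146 counts, log2 fold change -1.69, SE 0.100, adjusted p = 7.06e-09). EGR1, a zinc finger gene induced within minutes of serum, went from 2279 and 1998 to 2781 and 3147 counts (log2 fold change 0.35, SE 0.0942, adjusted p = 0.00834), a call lost without shZDHHC15 replicate 2 (adjusted p = 0.118). The calls of both groups of SRF targets were not tested against each other.

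Genes that build and cut filaments went in both directions. Of 30, all were tested, with 11 lower, 3 higher and 16 not passing, and a median log2 fold change of -0.11. Over all genes tested, 20.3% were lower, 21.7% higher and 42% called in either direction. The calls of both directions together came close to that last share. TMSB10, which encodes the monomer-binding thymosin beta-10, fell furthest (21190 and 24512 against 12556 and 13757 counts, log2 fold change -0.93, SE 0.103, adjusted p = 6.12e-06). DIAPH2, a formin gene, rose furthest (296 and 216 against 515 and 551 counts, log2 fold change 0.94, SE 0.142, adjusted p = 0.000104), and the antisense gene DIAPH2-AS1 overlaps it. Of 12 genes for tropomyosins, the filament-capping tropomodulins and leiomodins and caldesmon, 9 were tested, with 2 lower and 2 higher and a median of -0.03. These calls came close to the share of all genes called, 42%. TMOD1, whose exons overlap TSTD2 on the opposite strand, rose furthest, from 96 and 78 to 462 and 442 counts (log2 fold change 2.25, SE 0.165, adjusted p = 7.5e-08).

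The shZDHHC15 samples did not share 1 level of these genes. In shZDHHC15 replicate 2 all 8 tested genes were higher than in replicate 1, by 1.07-fold (ACTA2) to 1.37-fold (TAGLN) with a median of 1.16, while over all genes tested the median ratio of these samples was 0.992. In the shCON samples the ratio was above 1 for 4 of the 8 genes (0.811 to 1.08). With each of the 4 samples left out in turn, the log2 fold changes of TAGLN, TPM1 and ACTG1 reached no higher than -1.17, -0.999 and -0.52. Such a fit leaves 1 sample in a group. Calls kept or lost in it therefore rest on the spread of the other group and of other genes.

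Cell type markers also differed between the groups. The summed level of the 7 epithelial and HER2 markers was 16524 to 17729 CPM in shCON and 10256 to 10306 CPM in shZDHHC15 cells. Of these markers, 5 were lower and 1 higher, beside 20.3% and 21.7% of all genes tested. The keratin gene KRT8 fell furthest (log2 fold change -1.62) and KRT19 was higher. The 8 smooth muscle and myofibroblast markers, among them ACTG2 and CNN1, summed to 90.6 to 98.7 CPM in shCON and 64.4 to 79.3 CPM in shZDHHC15 cells. Of these, 5 were tested, with ACTG2 lower and the synaptopodin-2 gene SYNPO2 higher, and DES at 0. The 8 fibroblast markers summed to 5.98 to 7.41 against 8.66 to 11.5 CPM, with 6 of the genes at or under 3 counts in every sample and COL1A1 alone tested, and higher. The 3 endothelial markers summed to 48.4 to 49.98 against 96.7 to 102 CPM, with PECAM1 and CDH5 higher. VWF, with at most 7 counts in a sample, was not tested. All samples are labelled as HCC1954 cells. Whether the changes of these marker genes bear on those of the 10 genes was not tested.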

How the data were processed

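Total RNA of 4 HCC1954 samples was sequenced (NEBNext Ultra libraries). The authors deposited raw counts of reads per gene, not normalized, with each gene's position and length. The submitters' processing notes name HISAT2, StringTie, SAMtools and hg38. The counting tool and strand setting are not given in the sources used here. All 58735 identifiers and symbols were found in GENCODE release 29 (GRCh38), and 58724 had the same start and end. All 4 columns were used.

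Counts were filtered with filterByExpr (15817 genes kept), scaled with TMM factors and compared by edgeR 4.0.16 (glmQLFit, glmQLFTest; R 4.3.3, limma 3.58.1) over all genes, with Benjamini-Hochberg adjustment and a limit of 0.05. Standard errors were taken from the fold change and F statistic. RPKM values and family shares used the deposited gene length. Shared stretches of at least 150 bases and 97% identity were found with blastn 2.17.0. The tests were also run on simulated counts. Far fewer genes changed there than were called here, so that run does not cover so wide a change. Depth was 17560982 to 19118704 counts per sample.

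The 10 genes and the lists were chosen with earlier results of these data known. Named are the 10 genes, ZDHHC15, SRF, MRTFA, MRTFB, tested relatives of the same families, the furthest rise and fall of each list, and the 3 genes nearest in pattern to the members with the largest rise and fall (protein-coding, mean of at least 100 counts). Outside this rule, genes are named as overlapping neighbours, as cell type markers, as members of these families or lists that were not tested, or, where the text says so, after their values were seen. Alternatives were scaling by DESeq2 size factors, by upper-quartile factors or by library size alone, the Wald test of DESeq2 1.42.0, a filter of 10 counts per sample or none, edgeR's legacy quasi-dispersion, a replicate block, leaving out each sample, shares of counts, and, for promoters, 200 bases before the start. The median length of coding transcripts was added after seeing the data. Samples of a group differed by more than counting noise (chi-square per degree of freedom 8.32 for shCON and 6.79 for shZDHHC15) and were kept as replicates. The summed level of the leukocyte markers is not reported here.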

Additional observations from a re-analysis of the deposited data

How the results depend on the processing

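The limits of these results are 2 samples per group, reads that overlapping genes may share, and low counts for ACTA2 and CNN1. Calls near the threshold or lost in at least 1 other setting were those of ACTA2, ACTB, CNN2, TPM3, MRTFA, MRTFB and EGR1, among the genes followed through these settings. Of the 10 genes, 1 was higher, but 0 with the DESeq2 Wald test and with no filter on low counts, and 0 to 1 with each sample left out; 5 were lower, and 3 to 6 with each sample left out (3 without shZDHHC15 replicate 1; 6 without shCON replicate 1, where CNN1 had enough counts to be tested). TPM2, not called, ranged from -0.070 (without shZDHHC15 replicate 2) to 0.35 (without shZDHHC15 replicate 1) in log2 fold change, and TPM4, not called, from -0.17 (without shZDHHC15 replicate 2) to 0.017 (without shZDHHC15 replicate 1), with 0.0037 for library size only. With no filter, 2282 of all genes were higher, 1 actin gene, 3 of the myosin II genes and 0 of SRF and its cofactors. The DESeq2 Wald test called 1 actin gene higher, and library size only called 2 further MRTF-SRF targets higher. With each sample left out, 1 to 2 actin genes, 0 to 2 of SRF and its cofactors and 1 to 2 ternary complex factor targets were higher, and 1 to 3 of the tropomyosin, tropomodulin and caldesmon genes and 5 to 8 of the myosin II genes were lower. The deviations of same-number shZDHHC15 and shCON samples from their group means had a correlation of 0.061 over 15817 genes. With 2 samples per group this cannot decide whether the numbers pair the samples. With the replicate number as a block, 2 of SRF and its cofactors were higher, 3723 of all genes were higher and 3502 lower, and the calls of the 10 genes were 1 higher and 5 lower. Shares of plain counts changed by -11.9 points for TPM1, 0.624 for TPM2, 4.63 for TPM3 and 6.61 for TPM4, and shares per kilobase of the median coding transcript by 0.0488 for ACTA2, -14.0 for TPM1 and 7.53 for TPM3. The causes were not tested. Scaling by library size only moved the median log2 fold change of all genes to 0.090. With the shorter promoter window the same 3 genes held a CArG box.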

Other observations

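The genes nearest in pattern to the members with the largest rise and fall were found by the root mean square distance of log2 CPM, centred on each gene's mean over the 4 samples, among 10195 protein-coding genes that averaged 100 counts or more. Nearest to TAGLN was IGFBP5, a secreted binding protein of insulin-like growth factors, with 4207 and 3861 counts in shCON and 1452 and 2017 in shZDHHC15 cells (distance 0.0253, log2 fold change -1.35). ACTG2 came next (distance 0.0493), and then FST, which encodes follistatin, with 478 and 440 against 161 and 245 counts (distance 0.0501, log2 fold change -1.30). Nearest to ACTA2 were UGGT2, a glucosyltransferase gene of the endoplasmic reticulum (268 and 203 against 375 and 410 counts, distance 0.0128), CHD1, a chromatin remodeller gene (774 and 575 against 1063 and 1184 counts, distance 0.0157), and FARP2, a gene for a guanine nucleotide exchange factor (576 and 452 against 827 and 910 counts, distance 0.0173). With 4 samples such distances are a description, and many genes of like fold change come close.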
